A study of Mus musculus with 5 samples.

Results

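The genes described here encode the kinesins, the cytoplasmic dyneins and dynactin, the proteins that carry cargo along microtubules or move the microtubules themselves. They were taken from the annotation by name: protein-coding mouse genes called Kif followed by a digit, Klc1 to Klc4, Dync1 or Dync2, Dynll1 or Dynll2, and Dctn1 to Dctn6. This gave 58 genes of the 55471 identifiers counted. They were sorted by known role into 32 axonal transport motors, 12 mitotic kinesins and 14 others. The axonal set was taken by class: kinesin-1, kinesin-2, kinesin-3, neuronal kinesin-4, cytoplasmic dynein-1 and dynactin. Some of its members act in dendrites or cilia. The 14 others were 7 ciliary motors, 6 further kinesins and Kif1bp. Kif1bp matched the name pattern but encodes a kinesin-binding protein, not a motor.

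Polyadenylated RNA of whole spinal cord was sequenced. The mice were male, of the C57BL/6J strain, 3 months old and at rest. The control group (WT, Lhx1os +/+) had 3 libraries, and the knockout group (KO, Lhx1os -/-) had 2. In the knockout, Cas9 and 1 guide against exon 2 of the long non-coding RNA gene Lhx1os were used to insert a synthetic polyadenylation signal followed by MAZ elements, which destabilise the polymerase. No drug or other treatment is named for either group, and the series title links the model to motor neuron alterations and locomotor impairment. Each library name carries a different number, but no label says what it counts or that the libraries came from separate animals or litters. If they did not, the p-values reflect technical spread alone.

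Kinesins walk mostly towards the plus ends of microtubules, which in axons point away from the cell body, and cytoplasmic dynein 1, with its cofactor dynactin, carries cargo back. Spinal motor neurons send some of the longest axons of the body. Inherited defects in several of these genes, KIF5A, KIF1A, DYNC1H1 and DCTN1 among them, cause degeneration of motor or sensory axons in people. Mitotic kinesins instead build the spindle, move chromosomes and complete cell division, and are made mainly in cycling cells.

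Promoters of the 2 classes are shown first, because the classes differ in level across all libraries and the letters near the start site also differ. RefSeq promoters on GRCm38.p6, from 250 bases before to 50 bases after the annotated start, were matched by symbol for 44 of the 58 genes: 23 axonal motors, 11 mitotic kinesins and 10 others. The 80 bases before the start are printed for 3 mitotic kinesins and 3 axonal motors, 5′ to 3′ on the strand of the gene. Capitals mark TTTGAA (or TTCAAA, its reverse complement), the letters of the cell cycle homology region (CHR), CCAAT (or ATTGG), and TGACGTCA, the full cAMP response element.
Kif11 (chr19:37376302-37376381, plus strand): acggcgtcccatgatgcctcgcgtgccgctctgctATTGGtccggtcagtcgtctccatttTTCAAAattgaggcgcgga
Kif15 (chr9:122951001-122951080, plus strand): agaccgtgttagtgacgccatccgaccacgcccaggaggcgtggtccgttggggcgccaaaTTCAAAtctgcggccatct
Kif22 (chr7:127042421-127042500, minus strand): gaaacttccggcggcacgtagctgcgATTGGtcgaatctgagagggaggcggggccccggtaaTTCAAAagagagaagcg
Kif5c (chr2:49619206-49619285, plus strand): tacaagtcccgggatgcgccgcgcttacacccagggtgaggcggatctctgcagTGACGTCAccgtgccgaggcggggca
Klc1 (chr12:111758788-111758867, plus strand): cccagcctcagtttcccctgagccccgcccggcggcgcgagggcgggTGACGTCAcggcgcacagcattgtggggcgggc
Dync1h1 (chr12:110601315-110601394, plus strand): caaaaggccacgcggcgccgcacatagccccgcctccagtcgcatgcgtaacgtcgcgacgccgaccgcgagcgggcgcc

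TTTGAA was found on either strand in 9 of the 11 mitotic kinesin promoters (81.8%), in 2 of the 23 axonal motor promoters (8.70%, Dctn1 and Kif1a) and in 20.2% of the 27025 genes with a promoter of this length. The CHR is known as a binding element of the DREAM and MMB complexes, which repress and then activate genes of the late cell cycle. Within 25 bases of the start, a distance chosen after the matches were seen, it stood in 7 of 11 mitotic kinesins (63.6%), in 0 of 23 axonal motors and in 3.10% of all genes. The first base of the match lay 19 bases before the start in Kif11 and Kif15 and 17 before it in Kif22. It lay after the start in Kif23, Kif18b, Kif20b and Kif4. TGACGTCA was found in 4 of 23 axonal motors (17.4%, Kif5c, Klc1, Dctn3 and Kif17), in 1 of 11 mitotic kinesins (Kif18a) and in 2.03% of all genes. The printed Dync1h1 window held none of the 3 marked motifs.

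In all, 14 motifs were searched on both strands: TTTGAA with its variants TTCGAA or TTTAAA, the CCAAT box, the CpG-holding letters GCGCG or the longer GGCGCG that contains them, the TATA letters TATAAA, the GC box GGGCGG, the E2F letters TTTGGCGC or else TTTCGCGC, the E box CACGTG, the NRF1 letters GCATGCGC or, overlapping these, the shorter TGCGCA, and lastly TGACGTCA. CCAAT stood in 7 of 11 mitotic kinesins, 9 of 23 axonal motors and 41.1% of all genes. The GC-rich letters GGGCGG stood in 17 of 23 axonal motors (73.9%), 6 of 11 mitotic kinesins (54.5%) and 38.2% of all genes, and 51.0% of protein-coding genes. GCGCG gave the same counts in both classes, beside 32.0% of all genes and 43.4% of protein-coding genes. GGCGCG stood in 11 axonal motors (47.8%), 2 mitotic kinesins (18.2%), 21.2% of all genes and 29.2% of protein-coding genes. The E2F letters TTTGGCGC stood in 2 of 11 mitotic kinesins (18.2%), 0 of 23 axonal motors and 0.585% of all genes. Each of the other motifs stood in at most 4 axonal motors and at most 2 mitotic kinesins, beside 0.374% to 15.7% of all genes. A match describes the letters only and does not show that a protein binds there.

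**Figure D1:**
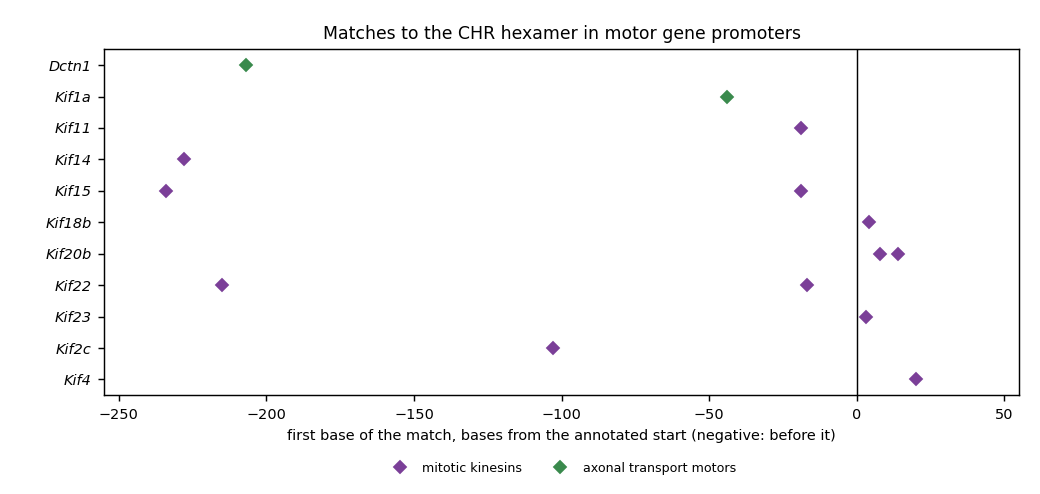
Positions of TTTGAA matches (either strand) in motor gene promoters. The horizontal axis gives the first base of the match relative to the annotated start in bases, each diamond is 1 match, and only axonal and mitotic genes with a match are drawn. The 7 mitotic kinesins with a match within 25 bases of the start cluster around the line, and neither axonal gene does.

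The libraries held 15973063 to 19437533 counts, with TMM normalisation factors from 0.982 to 1.01, and no library stood apart on these measures. For the targeted Lhx1os, 56, 66 and 51 reads were counted in WT and 13 and 11 in KO. In CPM, a gene's count scaled by the TMM-adjusted total of its library, this was 3.28 ± 0.124 against 0.742 ± 0.0776 (mean ± SD, n = 3 and 2). The fitted log2 fold change (-2.13, SE 0.28) had an adjusted p of 0.0589 by edgeR's quasi-likelihood test, above the threshold of 0.05. Summed CPM of 12 pan-neuronal markers was 11851, 10121 and 10122 in WT and 12003 and 11259 in KO. That of 8 motor neuron markers was 485, 333 and 347 in WT and 513 and 394 in KO. For both lists the groups overlapped, and the first library of each group was its highest. All markers of both lists passed the filter on low counts. Of these, 10 of the 12 and 7 of the 8 had a log2 fold change above 0, beside 51.3% of all genes. The motor neuron marker below 0, Isl1, was lower in KO without overlap (2.49 against 1.98 CPM by mean). No motor neuron marker was higher without overlap. The part of both lists in the results below was not tested. In whole tissue, fewer cells of a type and less RNA per cell cannot be told apart.

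Axonal motors as a class took a far larger part of the libraries than mitotic kinesins. All 32 axonal motors together took 1.30% to 1.40% of a library's counts, and all 12 mitotic kinesins took 0.000885% to 0.00112%. Per kilobase of exon, the median axonal motor stood at 36.1 to 36.6 CPM per kilobase across the 5 libraries and the median mitotic kinesin at 0.0796 to 0.126. Their ratio ran from 287 to 457. The classes did not overlap within any library, and by mean the lowest axonal motor, the light chain Klc3, had 0.575 CPM per kilobase and the highest mitotic kinesin, Kif4, 0.362. Across libraries they did meet: Klc3 had 0.395 in the third WT library, and Kif22 had 0.463 in the first KO library.

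By mean level over the libraries, Kif5a, the neuronal heavy chain of kinesin-1, led the module with 346.6 CPM per kilobase. Dynll2, a light chain that dynein shares with other complexes, followed with 292.6, and Kif1a, the kinesin-3 that carries synaptic vesicle precursors, had 185.0. Then came Klc1, the main light chain of kinesin-1, at 152.9 and Kif5c, another neuronal heavy chain, at 131.7. Kif1b and Kif5b stood next to each other at 94.8 and 93.4, a gap within the spread of their libraries. Klc2 had 83.1, Dync1li2 70.5 and the dynein heavy chain Dync1h1 66.2. Dctn1, the dynactin arm that grips microtubules and dynein, had 61.9. Of the 32 axonal motors, 27 averaged over 10 CPM per kilobase.

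**Figure D2:**
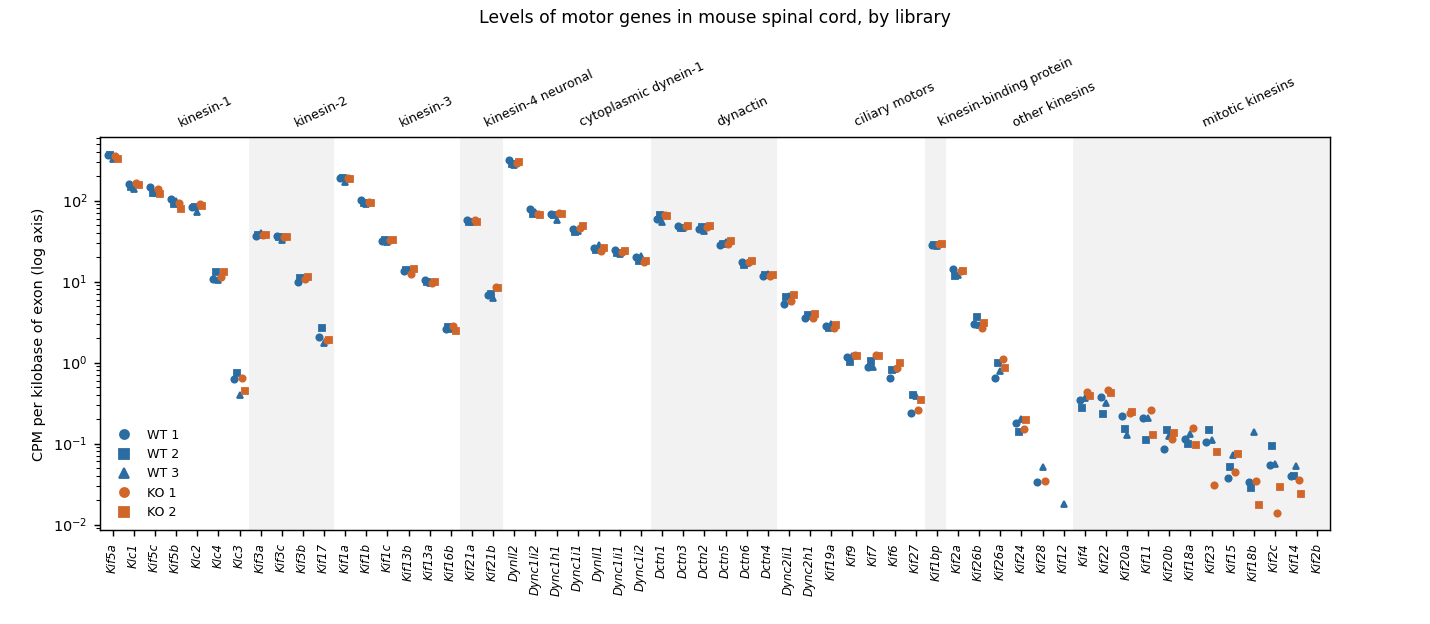
Level of each motor gene per library, in CPM per kilobase of exon on a log axis, grouped by role. Each point is 1 library (3 WT, 2 KO), and the axonal classes lie above the mitotic kinesins by means of 0.575 or more against 0.362 or less. Levels of 0 are not drawn, so Kif2b has no point, and Kif12 and Kif28 lack some.

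No motor gene passed the test between the genotypes. Of the 58 genes, 52 passed the filter on low counts, and none of them reached an adjusted p under 0.05 by edgeR, beside 0.0187% of the 16052 genes tested. DESeq2 also called no motor gene, beside 0.265% of the 15118 genes to which it gave an adjusted p. Kif23 was not among those 15118. The limma-voom fit called none of the 52 either. At an unadjusted p under 0.05 there were 4 (7.69%), beside 7.57% of all genes: Kif21b and Klc2 were higher in KO (3.85%, beside 3.49%), and Kif5b and Kif23 were lower (3.85%, beside 4.07%). The smallest adjusted p was 0.242 and the next 0.644. The genes with too few counts to test were Kif2b, Kif2c, Kif14, Kif18b, Kif12 and Kif28.

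For most axonal motors the data also bounded the size of any difference. In 30 of the 32 (93.8%) the 95% interval of the fold change lay within 1.5-fold either way, beside 71.4% of all genes tested. The exceptions were Klc3 and Kif17. Of the 32, 19 had a log2 fold change above 0 (59.4%, beside 51.3% of all genes), and the median was 0.03, beside 0.00 for all genes. Over the 52 tested members, CPM did not overlap between the groups in 14 that were higher in KO (26.9%, beside 12.9% of all genes) and in 1 that was lower (1.92%, beside 12% of all genes). Of the 14, 7 were axonal motors (21.9% of the 32): Kif21b, Klc2, Dync1h1, Dync1i1, Dctn2, Dctn3 and Dctn6. The pan-neuronal markers had a median log2 fold change of 0.09.

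**Figure D3:**
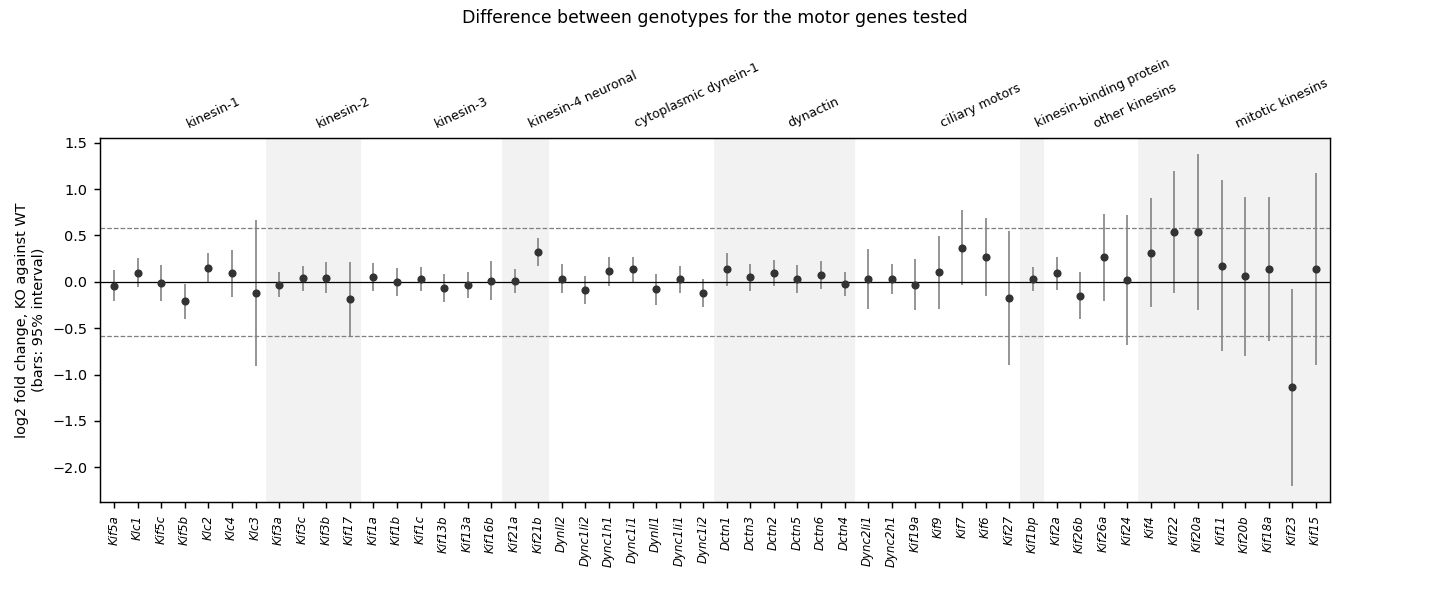
Log2 fold change (KO minus WT) of each tested motor gene with its 95% interval from edgeR's quasi-likelihood fit, grouped by role. Axonal motors lie close to 0 with short intervals, from -0.21 for Kif5b to 0.32 for Kif21b, whereas the intervals of mitotic kinesins are wide.

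Among the heavy chains of kinesin-1, the motor for much fast anterograde axonal cargo, Kif5a measured 2544, 2528 and 2281 CPM in WT and 2513 and 2249 CPM in KO. The KO libraries bracketed the lowest WT library, and the log2 fold change was -0.04 (SE 0.07, 95% interval -0.21 to 0.12). Kif5c, with 1044, 895 and 893 CPM in WT and 1003 and 869 CPM in KO, overlapped as well (log2 fold change -0.01, SE 0.09). Kif5b, the heavy chain made in most cell types, had 842, 731 and 791 CPM in WT and 740 and 622 CPM in KO, or 788 ± 55.8 against 681 ± 83.7 (SD, n = 3 and 2). The second KO library was the lowest of all 5, and the first lay above 1 WT library. Its log2 fold change was -0.21 (SE 0.09, 95% interval -0.40 to -0.02), and the adjusted p was 0.644 by edgeR's quasi-likelihood test. Without the second KO library the log2 value was -0.09 (SE 0.10), and without the first -0.34 (SE 0.11).

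The light chains bind cargo and hold the idle motor folded. Klc2 measured 345, 340 and 301 CPM in WT and 373 and 359 CPM in KO, 328.7 ± 24.1 against 365.9 ± 9.31, so both KO libraries were above all WT libraries. The log2 fold change was 0.15 (SE 0.07, 95% interval 0.00 to 0.31), and the adjusted p was 0.657 by edgeR. The fold change was 0.09 on the log2 scale (SE 0.06) without the third WT library, the lowest. Klc1 had 651, 603 and 562 CPM in WT and 663 and 633 CPM in KO (log2 fold change 0.10, SE 0.07), with overlap. Klc4 stayed between 25.1 and 31.5 CPM in all libraries and Klc3 between 1.05 and 1.99 CPM. Klc3 shares 28.1% of its exon bases with Ercc2 on the other strand, and without a stated strand setting its counts are uncertain. Klc2 shares 10.6% with an antisense gene of 7 to 19 counts.

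Kinesin-2 motors serve both axons and cilia, and none of the 4 genes had groups that did not overlap. Over all genes tested, 12.9% were higher and 12% lower in KO without overlap. Kif3c had 242 to 271 CPM in WT and 264.0 to 264.4 CPM in KO, and Kif3a, the shared subunit of the kinesin-2 dimers, 131 to 142 in WT and 133 to 134 in KO. Their log2 fold changes were 0.04 (SE 0.06) and -0.03 (SE 0.06). Kif3b, the partner of Kif3a in ciliary transport, had 0.05 (SE 0.08), and Kif17, a dendritic motor, -0.19 (SE 0.18) at only 8.0 to 12.2 CPM. An antisense gene covers 35.3% of the exon bases of Kif3c, with 131 to 208 counts.

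Kinesin-3 motors, which carry synaptic vesicle precursors, mitochondria and endosomes, overlapped between the groups in all 6 genes. Of all genes tested, 12.9% were higher and 12% lower without overlap. Kif1a had 1750, 1781 and 1571 CPM in WT and 1792 and 1739 CPM in KO (log2 fold change 0.05, SE 0.07). Kif1b had 1794, 1639 and 1580 CPM in WT and 1713 and 1623 CPM in KO, with -0.00 (SE 0.07, 95% interval -0.15 to 0.15). Both intervals lay within 1.5-fold either way. Kif1c, Kif13a, Kif13b and Kif16b, which move vesicles and endosomes, had log2 fold changes from -0.06 to 0.03.

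Kif21b (chr1:136131389-136177998, plus strand), a kinesin-4 of neurons that moves cargo in dendrites and restrains microtubule growth, showed the smallest p of the module. It measured 83.1, 86.3 and 77 CPM in WT and 104.8 and 100.3 CPM in KO, 82.1 ± 4.70 against 102.5 ± 3.18 (SD, n = 3 and 2). Both KO libraries lay above every WT library. The log2 fold change was 0.32 (SE 0.07, 95% interval 0.17 to 0.47), and the adjusted p was 0.242 by edgeR's quasi-likelihood test. With no filter on low counts the adjusted p was 0.0444, and over all alternative fits the log2 fold change stayed between 0.27 and 0.36, with adjusted p-values from 0.0444 to 0.935. Its close relative Kif21a, which acts at the cell cortex on microtubule growth, had 374, 353 and 351 CPM in WT and 370.3 and 352 CPM in KO (log2 fold change 0.01, SE 0.06).

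Cytoplasmic dynein 1 is built on a heavy chain, Dync1h1, with intermediate, light intermediate and light chains. Dync1h1 measured 1056, 1046 and 911 CPM in WT and 1096 and 1074 CPM in KO, without overlap, and its log2 fold change was 0.11 (SE 0.07; adjusted p of 0.747) by edgeR. The intermediate chains, which tie the motor to dynactin, lay on opposite sides of 0. Dync1i1, the neuronal form, had 161, 148 and 151 CPM in WT and 165 and 171 CPM in KO (log2 fold change 0.13, SE 0.06; 95% interval -0.00 to 0.27), with an adjusted p of 0.666 by edgeR. Dync1i2, the broadly made form, had 164, 149.9 and 170.1 CPM in WT and 146 and 150.3 CPM in KO (log2 fold change -0.12, SE 0.07) with an adjusted p of 0.714. The Dync1i1 groups were apart and the Dync1i2 groups overlapped. Light intermediate chains had 0.03 (Dync1li1) and -0.09 (Dync1li2), and the light chains Dynll1 and Dynll2 had -0.08 and 0.04, all with overlap.

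Dynactin couples dynein to cargo and makes its runs longer. Dctn1 measured 386, 428 and 349 CPM in WT and 427 and 425 CPM in KO, with the second WT library above both KO libraries, and a log2 fold change of 0.13 (SE 0.08). Dctn2, the dynamitin subunit of the shoulder, had 216, 226 and 204 CPM in WT and 227 and 233 CPM in KO, without overlap, and 0.10 (SE 0.06). Dctn3, also of the shoulder, and Dctn6, of the pointed end, were apart by small amounts, with log2 fold changes of 0.05 and 0.08. The pointed-end subunits Dctn4 and Dctn5 had -0.02 and 0.03. Of the 6, 3 were higher in KO without overlap, beside 12.9% of all genes. None of the 6 reached an unadjusted p under 0.05 by edgeR, beside 7.57% of all genes.

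Closely related motors can partly replace each other, so the share of each gene in its family was also computed per library from CPM per kilobase. Kif5a made up 59.1%, 62.5% and 59.3% of the kinesin-1 heavy chains in WT and 60.7% and 61.7% in KO, a difference of 0.891 points with overlap. Kif5b made up 17.1%, 15.8% and 18.0% in WT and 15.6% and 14.9% in KO, a difference of -1.69 points without overlap. Dync1i1 took 69.4%, 69.6% and 67.3% of the intermediate chains in WT and 72.4% and 72.5% in KO, 3.70 points more. Kif21b took 10.6%, 11.5% and 10.5% of the kinesin-4 pair in WT and 13.1% in both KO libraries, 2.26 points more, and Klc2 gained 0.889 points among the light chains. For these 4 genes, and for Kif21a and Dync1i2 as the complements of their pairs, the groups were apart, with an exact two-sided permutation p = 0.2 for each before adjustment over the 9 families compared. That is the smallest p this test, which takes 2 times the smaller tail, can give for 3 against 2 libraries. An exact permutation p = 0.2 arises often without any genotype difference, so groups lying apart do not alone show a shift. In the other 5 families (Kif1, Kif3, Kif13, Dync1li and Dynll) every share overlapped between the groups. With the longest transcript as length or with no length correction, the direction of these differences was the same.

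**Figure D4:**
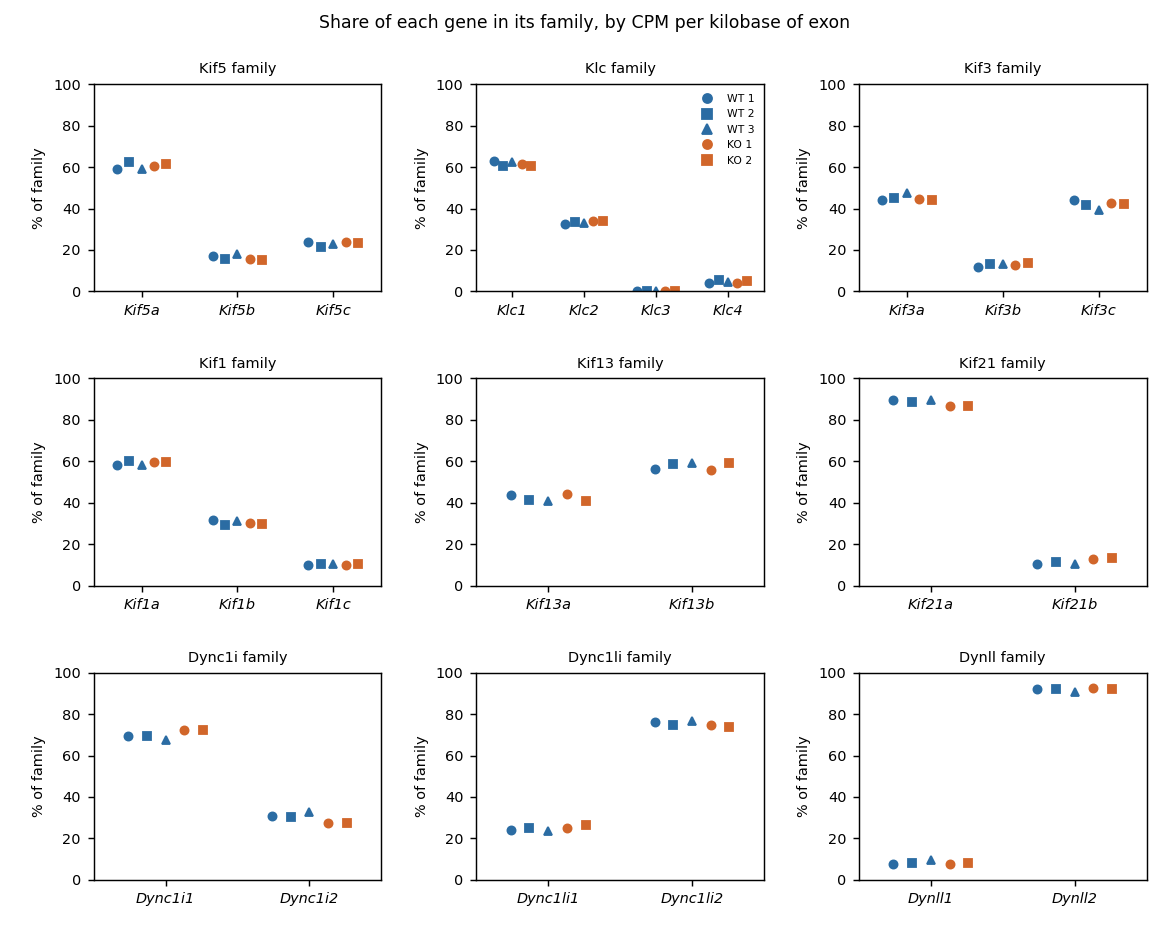
Share of each gene within its motor family, in percent of the family's summed CPM per kilobase, for each library. Points are single libraries (3 WT, 2 KO), and Kif5b (15.8% to 18.0% against 14.9% to 15.6%) and Dync1i1 (67.3% to 69.6% against 72.4% to 72.5%) are among the genes whose groups lie apart.

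Mitotic kinesins rested on 0 to 39 counts per library. Kif23, which bundles microtubules at the central spindle during cytokinesis, had 14, 23 and 14 counts in WT and 4 and 10 in KO, 0.957 ± 0.190 against 0.435 ± 0.269 CPM (SD, n = 3 and 2). Both KO libraries were below all WT libraries. Its log2 fold change was -1.14 (SE 0.48, 95% interval -2.20 to -0.08), and the adjusted p was 0.647 by edgeR's quasi-likelihood test. Without the first KO library the log2 value was -0.62 (SE 0.54), and without the second -1.94 (SE 0.68).

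The 7 other tested mitotic kinesins had log2 fold changes above 0 (7 of 8, beside 51.3% of all genes), from 0.06 to 0.54. Kif22, a chromokinesin that pushes chromosome arms outward, had 31, 22 and 25 counts in WT and 37 and 33 in KO (log2 fold change 0.54, SE 0.30). Kif20a, needed for cytokinesis, had 16, 13 and 9 in WT and 17 in each KO library (0.54, SE 0.38). Kif4, a chromokinesin, had 32, 30 and 33 in WT and 39 and 34 in KO (0.32, SE 0.26). These 3 of the 8 tested were higher in KO without overlap, beside 12.9% of all genes, and none reached an unadjusted p under 0.05. Exons of Kif20a are shared over 29.3% of their bases with Cdc23, of 735 to 848 counts, and those of Kif4 over 15.1% with Pdzd11, each on the opposite strand.

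Groups overlapped for Kif11, the motor that drives spindle poles apart (26, 16 and 25 counts in WT, 32 and 15 in KO), and for Kif15, which can stand in for it (7, 11 and 13 in WT, 8 and 13 in KO). Kif18a, which dampens chromosome movement, had 19, 19 and 21 counts in WT and 25 and 15 in KO, and Kif20b, active in cytokinesis, 10, 20 and 14 in WT and 13 and 15 in KO. Those 4 genes also overlapped in CPM. Of the untested genes, the microtubule depolymerase Kif2c had 4, 8 and 4 counts in WT and 1 and 2 in KO, and Kif14, of the midbody, 7, 8 and 9 in WT and 6 and 4 in KO. Kif2c and Kif14 were thus lower in KO without overlap in CPM, on counts too low to test. Kif18b, a regulator of astral microtubules, had 2, 2 and 8 in WT and 2 and 1 in KO, with overlap. Kif2b had 0 counts in every library, which allows a level of up to 0.154 to 0.188 CPM (3 counts; counting error only).

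Summed over all 12, mitotic kinesins came to 10.0, 8.79 and 10.8 CPM in WT and 11.3 and 9.94 CPM in KO, so the groups overlapped. The 8 tested genes, which are not all 12, had a median log2 fold change of 0.16, and none of their 95% intervals lay within 1.5-fold. A difference of that size was therefore not excluded for any of the 8. The 12 cell cycle markers, such as Mki67 and Top2a, came to 10.2, 10.2 and 13.2 CPM in WT and 9.63 and 9.69 CPM in KO. Of the 8 markers tested, 2 had a log2 fold change above 0, beside 51.3% of all genes. Markers of oligodendrocyte precursors, which can divide in the adult cord, came to 348 to 364 CPM in WT and 326 and 320 CPM in KO, with both KO libraries below all WT libraries. Of these 6 markers, 3 (Gpr17, Neu4 and Pdgfra) were lower at an unadjusted p under 0.05 (beside 4.07% of all genes). The median log2 fold change was -0.18, but 2 of the 6 lay above 0. These were Sox10 (0.13, higher in KO without overlap) and Cspg4 (0.01), and Olig2 (-0.14) overlapped between the groups. Gpr17 alone had 68.0 CPM in WT and 44.3 in KO by mean. Markers of meninges came to 201, 390 and 460 CPM in WT and 245 and 256 CPM in KO, with 0 of 7 above 0 and a median of -0.45. The part of these 3 lists in the mitotic kinesin values was not tested.

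**Figure D5:**
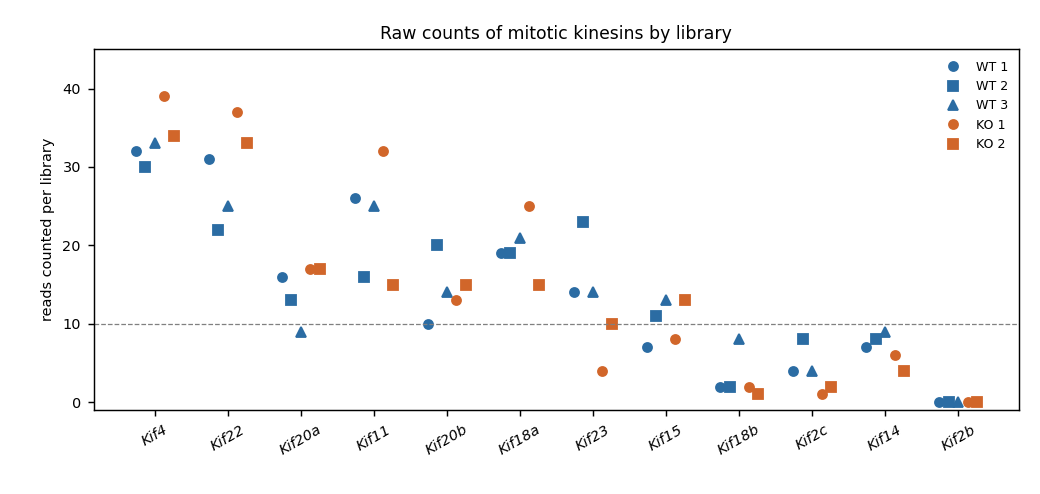
Counts of the mitotic kinesins in each library. Each point is 1 library (3 WT, 2 KO); Kif23, with 14 to 23 counts in WT and 4 to 10 in KO, lies lower in KO, Kif22, Kif20a and Kif4 lie higher, and Kif2b is at 0 throughout.

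Ciliary motors move cargo inside cilia or drive ciliary signalling and beating. Kif7, a regulator of hedgehog signalling at the tip of the cilium, had 4.05, 4.85 and 4.00 CPM in WT and 5.64 and 5.50 CPM in KO, without overlap. Its log2 fold change was 0.37 (SE 0.18, 95% interval -0.04 to 0.77), and the adjusted p was 0.692 by edgeR. An antisense gene, 9330171B17Rik, shares 19.1% of its exon bases and had 66, 77 and 60 counts in WT and 91 and 101 in KO, and without a stated strand setting the counts of Kif7 are uncertain. Kif6 and Kif9, found in motile cilia, were also higher without overlap (log2 fold changes 0.27, SE 0.19, and 0.10, SE 0.18). Among the 7 ciliary motors, 3 were thus higher without overlap, beside 12.9% of all genes. The motor of retrograde ciliary transport, Dync2h1, had 58.0 to 63.2 CPM in WT and 58.6 to 65.1 CPM in KO (log2 fold change 0.03, SE 0.07). Summed markers of motile cilia and ependyma were 48.0, 52.7 and 58.1 CPM in WT and 58.9 and 59.3 CPM in KO. All 9 of these markers passed the filter and 5 had a log2 fold change above 0, beside 51.3% of all genes. Foxj1 alone had 28.6, 28.9 and 25.6 CPM in WT and 32.6 CPM in each KO library. It was the only marker higher in KO without overlap, and Spag17 was the only one lower. The part of these markers in the ciliary motor values was not tested.

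The remaining members included Kif2a, a depolymerase that prunes neuronal microtubules, with a log2 fold change of 0.09 (SE 0.08). It shares 19.2% of its exon bases with Dimt1 on the other strand. Kif26a and Kif26b, kinesins that lack motor activity, had 0.26 (SE 0.21) and -0.15 (SE 0.11), and Kif24, a depolymerase at centrioles, 0.02 (SE 0.32). Kif1bp had 136 to 139.5 CPM in WT and 141 to 142 CPM in KO (log2 fold change 0.03, SE 0.06). Kif28 had at most 3 counts and Kif12 at most 1 in any library.

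Partners of the motors were read from a list of 66 genes: kinesin cargo adaptors, further dynein light chains, dynactin filament and capping subunits, dynein adaptors and regulators, minus-end kinesins, and proteins bound to the microtubule track. Of these, 65 were tested, all but Bicdl2. None reached an adjusted p under 0.05 by edgeR, and 4 (6.15%, beside 7.57% of all genes) had an unadjusted p under 0.05. Nde1, which with Lis1 loads dynein, had 75.5, 64.3 and 75.1 CPM in WT and 57.3 and 57.8 CPM in KO (log2 fold change -0.31, SE 0.08) with an adjusted p of 0.422. Hook3, an adaptor that switches dynein on, had 139, 132 and 149 CPM in WT and 122 and 123 CPM in KO (log2 fold change -0.19, SE 0.07). Both were lower in KO without overlap. Map7d1, a microtubule protein that recruits kinesin-1, had 255, 255 and 229.6 CPM in WT and 282 and 274 CPM in KO (0.17, SE 0.06). Dynlrb1, a dynein light chain, had 96.7, 95.2 and 103.6 CPM in WT and 106.8 and 112 CPM in KO (0.15, SE 0.06). These 2 were higher without overlap, and adjusted p-values of Hook3, Map7d1 and Dynlrb1 lay between 0.603 and 0.647 by edgeR. The 23 cargo adaptors of kinesin, such as Trak1 and Mapk8ip3, had no gene at an unadjusted p under 0.05 and a median log2 fold change of 0.03, beside 0.02 for all 65.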

How the data were processed

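The table holds raw counts, 1 value per gene and library, as deposited and without normalization. The submitters' processing notes name cutadapt, Trimmomatic, STAR 2.5.2b and HTSeq as tools and GRCm38 as the build, and the library kit was TruSeq Stranded mRNA, per the labels' protocols. For the counting, neither annotation release nor strand setting is given in the sources used here. Groups were taken from the sample titles.

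GENCODE M21 (GRCm38) supplied symbols, biotypes, exons and positions for 55230 of the 55471 identifiers. After filterByExpr, with a minimum count of 10 and a minimum total of 15, 16052 genes were left. They were tested in 1 fit with edgeR 4.0.16 (R 4.3.3), using TMM factors, the quasi-likelihood F test and no covariates. P-values were adjusted over all genes tested by the Benjamini-Hochberg method (threshold 0.05), intervals are at 95%, and log2 fold changes are KO minus WT. The common biological coefficient of variation was 7.48%. Within a group, libraries were no copies of each other (chi-square per degree of freedom 4.01 to 7.47). CPM uses TMM-scaled totals, and CPM per kilobase divides by the union of a gene's exons. Family shares were compared by exact permutation. Scripts were checked on simulated counts. DESeq2 1.42.0 and limma 3.58.1 (voom) were alternatives.

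The members and lists were chosen with earlier results of these data known. Named genes are Lhx1os, members at an unadjusted p under 0.05 with a mean of at least 1 CPM, up to 4 of the most abundant members of each class, every mitotic kinesin, partner genes at an unadjusted p under 0.05, and the other members by their values. Kif6, Kif7, Kif9 and Dync1i2 were picked for fuller description with their values in view.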

Additional observations from a re-analysis of the deposited data

How the results depend on the processing

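The number of genes called over the whole table, 3, moved with the tool: it was 6 with DESeq2 size factors, 96 with no filter on low counts, 12 with robust dispersion, 40 with DESeq2, 1 with limma-voom, 15 at an adjusted p under 0.1, and 0 to 58 when 1 library was left out. None of the motor genes was called in any of these fits except Kif21b with no filter (1 gene). The number of motor genes at an unadjusted p under 0.05 was 4, 2 with a minimum count of 30, and 2 to 7 when 1 library was left out. The median log2 fold change of axonal motors, 0.03, ranged from -0.01 to 0.05 when 1 library was left out, and that of tested mitotic kinesins, 0.16, from 0.15 to 0.42, with 0.42 at a minimum count of 30, where fewer genes were tested. The log2 fold change of Lhx1os passed at -2.14 with DESeq2 size factors, -2.14 with no filter, -2.13 with robust dispersion and -2.15 with DESeq2, and ranged from -2.25 to -2.03 when 1 library was left out, passing without the first WT library (-2.12, adjusted p 0.0295 by edgeR).

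Same-numbered libraries were compared as possible pairs. Their deviations from the group means correlated at 0.06 (first) and 0.00 (second). The deviations of the KO libraries mirror each other by construction, so these values cannot show whether same-numbered libraries were paired. With the replicate block, 25 genes were called, 4 motor genes had an unadjusted p under 0.05, the median was -0.00 for axonal motors and 0.34 for mitotic kinesins, and Lhx1os passed at -2.16 (adjusted p 0.0452 by edgeR).

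Of the 52 tested motor genes, 27 changed sign in some alternative, all with a log2 fold change of at most 0.17 in size, and only with the block or a library left out. Depth limits the mitotic kinesins most, with 0 to 39 counts per library, and the KO group has only 2 libraries. Causes of these shifts were not tested.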
